A study of Mus musculus with 4 samples.

Results

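The enzymes described here are the mouse cytochrome P450s, flavin monooxygenases, epoxide hydrolases, carboxylesterases, glutathione transferases, glucuronosyltransferases, sulfotransferases and aldehyde dehydrogenases. They were taken by symbol: genes named Cyp with a family number, subfamily letter and gene number, Fmo, Ephx, Ces, Gst (alpha, kappa, mu, omega, pi and theta) and Mgst, Ugt, Sult and Aldh, leaving out Cyp2f2 and Aldh1a1, which serve here as markers of club cells. The rule found 191 of the 22565 genes in the deposited table, which marks them all as protein-coding, made up of 90 P450, 5 Fmo, 2 Ephx, 16 Ces, 23 Gst or Mgst, 18 Ugt, 18 Sult and 19 Aldh genes. RNA had been measured in untreated alveolar type II (AT2) cells, which make the surfactant of the lung, sorted by flow cytometry from 6-month-old mice. There were 2 wild-type (WT) libraries and 2 libraries labelled knockout (KO); the growth protocol names the mutant mice Fbxo45-cKO, while the genotype field gives Fbxo45 knockout for KO replicate 1 and Fbxo46 knockout for KO replicate 2. The sources used here do not say which cells carry the deletion, what drove it, or whether both libraries of a group came from different animals. P-values therefore measure only how far these libraries spread, which may be technical.

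These enzymes act on lipophilic compounds from outside and inside the body. P450s and flavin monooxygenases add oxygen, epoxide hydrolases and carboxylesterases split epoxides and esters with water, and transferases couple the product to glutathione, glucuronic acid or sulfate so that it can leave the cell. Aldehyde dehydrogenases oxidise reactive aldehydes to acids. In the lung such enzymes are best known from club cells of the bronchioles, and AT2 cells also carry part of the set.

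Fbxo45, an F-box protein of a ubiquitin ligase, was at 4.6 and 5.91 FPKM (fragments per kilobase of transcript, scaled to library size) in the WT pair, against 4.41 and 7.58 FPKM in the KO-labelled pair, here and below in the order replicate 1, replicate 2. Fbxo46 was at 4.13 and 3.79 FPKM in the WT pair, against 3.82 and 4.8 FPKM in the KO-labelled pair. Neither gene separated the groups, and every direction below is that of the libraries labelled KO. Depth was between 4167114 and 9507431 fragments per library, lowest in WT replicate 1 and highest in KO replicate 1. All 11 AT2 markers were tested and abundant. Their summed level was 131462 and 125182 FPKM in the WT pair, against 82997 and 117591 FPKM in the KO-labelled pair, lowest in KO replicate 1. Most of that sum was Sftpc, at 101544 and 94984 FPKM in the WT pair, against 54458 and 87684 FPKM in the KO-labelled pair. Of the other markers, Abca3, Napsa, Etv5 and Lpcat1 were highest in KO replicate 1. Sftpa1, Sftpd, Lamp3, Slc34a2 and Nkx2-1 were lowest there, and Sftpb was neither. KO replicate 1 also carried fast skeletal muscle genes, whose 7 markers summed to 1004 FPKM against 0.159 to 8.65 FPKM elsewhere. Club markers, 8 genes led by Scgb1a1, summed to 1346 and 903 FPKM in the WT pair, against 1149 and 828 FPKM in the KO-labelled pair, and of the 6 tested 1 was higher. The 8 fibroblast markers summed to 27.7 FPKM in WT replicate 2 and to between 73.4 and 78.1 FPKM in the other libraries; all 7 tested were higher in the KO-labelled libraries (median 0.53), 2 of them at an unadjusted limma p under 0.05 and 0 at an adjusted one. Of the 3 basal-cell markers, Krt5 and Krt14 were at 0 in all libraries and Trp63 had 0 to 3 fragments. The 8 markers of alveolar type I cells summed to 766 and 634 FPKM in the WT pair, against 972 and 630 FPKM in the KO-labelled pair. Of these 8, 4 were higher and 4 lower. The 5 macrophage markers summed to 7.84 and 7.56 FPKM, against 18.1 and 8.52 FPKM. Both of these sums were highest in KO replicate 1. In bulk RNA, fewer cells of a type and less RNA per cell cannot be told apart, and the part of these other cells in the results below was not tested.

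Some of the genes share coding sequence to an extent that limits how fragments can be assigned. The coding sequences of Gstp1 and Gstp2, of 630 bases each in GENCODE M21, are the same at 618 positions (98.1%), and the last 300 bases, positions 331 to 630, are identical. In the Ugt1a locus the transcripts differ in their first exon and share the remaining ones. The first 120 bases of the run shared by Gstp1 and Gstp2 are shown, since a read that falls inside them cannot tell the genes apart.
Gstp1 and Gstp2, coding positions 331 to 450 of both: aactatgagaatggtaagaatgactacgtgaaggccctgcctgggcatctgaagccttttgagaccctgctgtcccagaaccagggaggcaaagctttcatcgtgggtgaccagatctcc
Of sampled 100-base stretches of the transcripts, 58.0% occurred in another gene for Gstp2, 36.4% for Gstp1, 55.1% for Ugt1a6a, 63.1% for Ugt1a5 and 57.1% for Ugt1a1. The levels of these 5 genes are therefore uncertain.

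Most of the set was silent or nearly so in AT2 cells. A level of at least 1 FPKM in at least 2 libraries, the condition for being tested, was reached by 55 of the 191 genes (28.8%), against 49.0% of all genes in the table. Of the 136 others, 92 had 0 fragments in all 4 libraries, 26 had 1 to 9 fragments in all, and 18 had 10 or more. Taking 3 fragments as the limit, a count of 0 allows up to 0.72 CPM (fragments per 1000000) in the shallowest library and 0.316 CPM in the deepest, which covers counting error only. The share tested differed between classes: 14 of 90 P450s, 2 of 16 carboxylesterases, 3 of 18 glucuronosyltransferases and 3 of 18 sulfotransferases were tested, against 4 of 5 flavin monooxygenases, 15 of 23 glutathione transferases and 13 of 19 aldehyde dehydrogenases. Of the Cyp1 to Cyp3 families, which handle most drugs in the liver, 6 of 57 genes were tested. The 14 genes of the Cyp2c cluster, the 6 of the Cyp3a cluster, the 9 Ugt2 genes, the 8 of the Ces2 cluster and the 7 of the Sult2a cluster held no tested gene. The highest value of an untested gene was 2.38 FPKM, for Ugt1a2 in KO replicate 2.

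Where neighbouring genes of a family lie in a row on the chromosome, usually a single gene carried most of the signal counted within the set. Grouping genes of a class that lie within 500 kb of the next gave 18 clusters of at least 3 genes, with 125 genes in all. Of these, 7 clusters held no tested gene, and in 8 of the other 11 the highest gene took over 80% of the cluster's summed FPKM. On chromosome 7, Cyp2b10 took 99.2% of the signal of 12 Cyp2 genes of the set, the next being Cyp2a5 with a mean of 0.563 FPKM. Only genes of the set were counted in these shares. Cyp2f2, another Cyp2 gene, which the rule leaves out, had a mean of 71.4 FPKM, beside 131 FPKM for Cyp2b10. It would lower the share of any cluster it lay in, and its place on the chromosome was not examined. The 99.2% therefore holds for genes of the set only, and Cyp2b10 cannot be said to carry the signal of that stretch alone. On chromosome 8, Ces1d took 98.5% of the signal of 8 carboxylesterases, Ces1e following at 4.91 FPKM. Gsta4 took 99.8% of its 3-gene cluster on chromosome 9, and Fmo2 took 88.4% of the 4-gene cluster on chromosome 1. The 3 clusters with a more even division were those of Gstt1 (60.2% of 4 genes), Gstm1 (73.7% of 7) and Cyp4f16 (52.3% of 7).

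**Figure D1:**
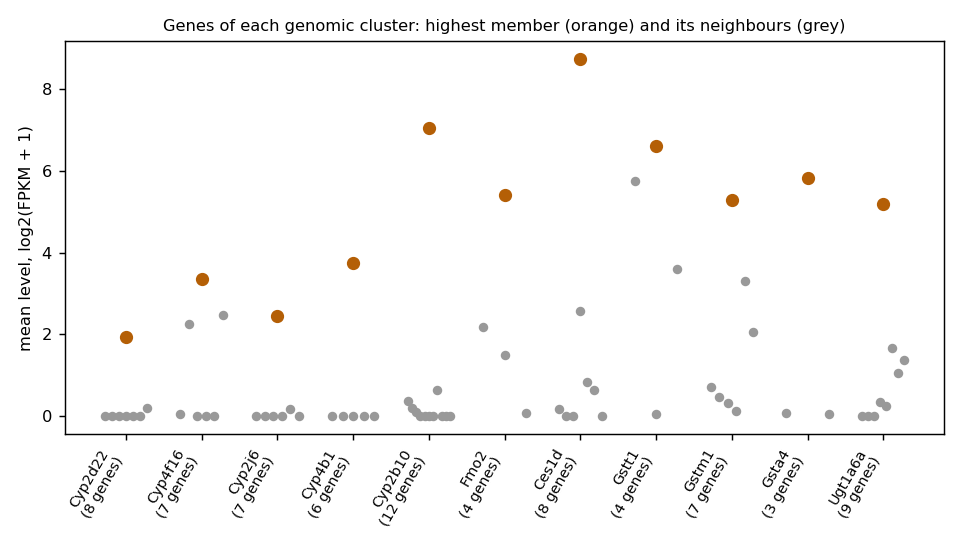
Mean level over the 4 libraries, as log2(FPKM + 1), of the genes of the set in the 11 genomic clusters that hold a tested gene. There is 1 column per cluster, named by its highest gene of the set. Cyp2f2, left out of the set, is not drawn. Orange points are the highest gene and grey points its neighbours within the set. Cyp2b10 and Ces1d stand far above the neighbours drawn, while Gstt1 has a close neighbour.

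Among the 55 tested genes, 4 lay above 100 FPKM on average, 22 between 10 and 100 FPKM and 29 at 10 FPKM or less. Mgst1, a membrane-bound glutathione transferase and peroxidase, had the highest mean at 427.6 FPKM, rank 61 in the whole table, and Ces1d, a carboxylesterase that splits lipid esters, followed at 424.1 FPKM, rank 62. Aldh2, the mitochondrial enzyme that oxidises acetaldehyde, followed at 197 FPKM and Cyp2b10 at 131 FPKM. These 4 genes made up 52.3% of the summed FPKM of all 191. The order is a description: of the 54 pairs of neighbours in it, the ranges over the 4 libraries overlapped in 53, the exception being Ces1d and Aldh2.

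**Figure D2:**
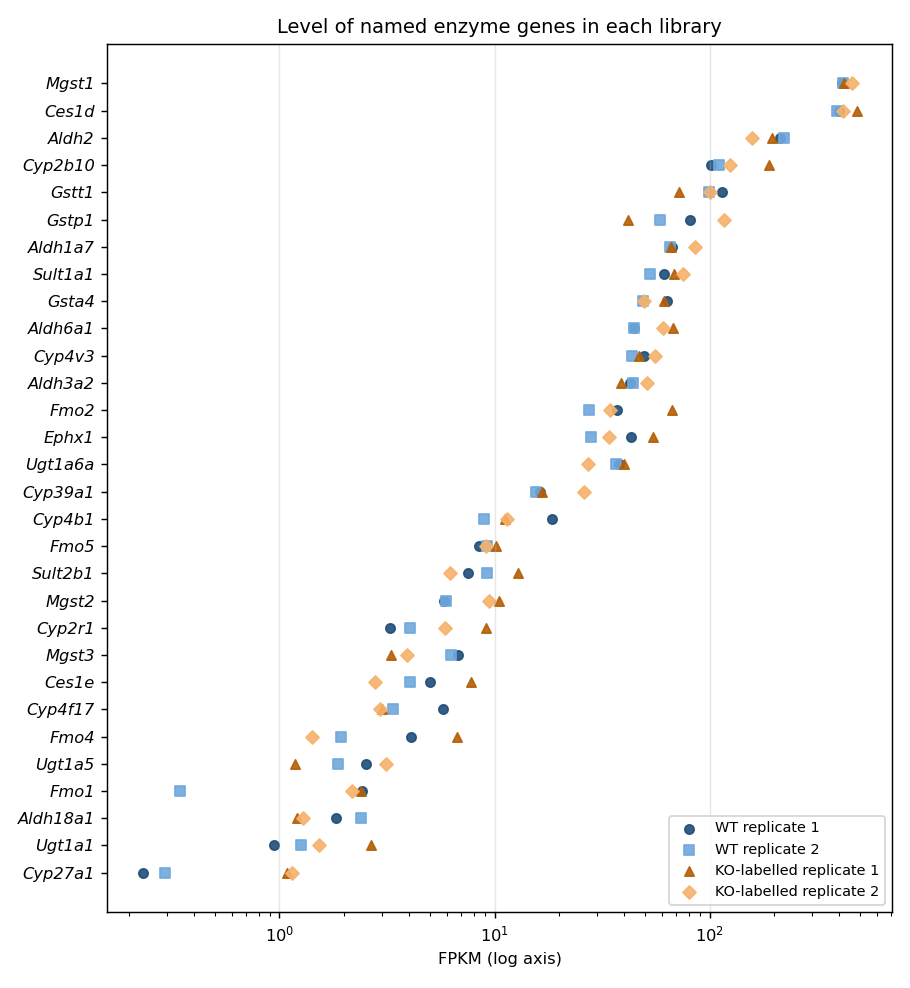
FPKM (log axis) of 30 of the 31 enzyme genes described below in the 4 libraries (Sult5a1, listed at 0 in a library, is left out), ordered by mean level; circles and squares are WT replicates 1 and 2, triangles and diamonds are KO-labelled replicates 1 and 2. Mgst1 and Ces1d lie highest. For Cyp27a1 both KO-labelled libraries lie apart from both WT libraries, but it met the condition for testing through the former only and rests on few fragments.

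The central comparison was of KO-labelled with WT libraries, with limma on log2(FPKM + 1), adjusted over all genes tested. No enzyme gene passed: 0 of 55 had an adjusted p under 0.05, as did 0% of the 11055 genes tested, and the lowest adjusted p was 0.948. At an unadjusted p under 0.05 there were 5 of 55 (9.09%), against 4.84% of all genes. Sult5a1, Mgst2, Cyp2r1 and Aldh6a1 were on the higher side (7.27%, against 2.68% of all genes) and Mgst3 on the lower (1.82%, against 2.16%). Sult5a1, like Cyp27a1, met the condition for testing through the KO-labelled libraries only, which fixed its side; without these 2 genes, 3 of 53 (5.66%) were on the higher side. On fragments recovered from the count columns, edgeR's quasi-likelihood test called 0 of 60 enzyme genes and 0% of all genes, with 3 enzyme genes (5%) at an unadjusted p under 0.05 against 3.18% of all genes. These were Cyp27a1, Aldh6a1 and Aldh16a1. Cyp27a1 rests on 2 and 5 fragments in the WT pair, against 23 and 16 in the KO-labelled pair. Its presence in this count is therefore also tied to its level in the KO-labelled libraries. DESeq2 called 0 of 99 enzyme genes and 0.0457% of all genes, with 2 (Cyp2b10 and Aldh6a1) at an unadjusted p under 0.05 against 1.82% of all genes. Some of the 99, such as Cyp2a5, were given no adjusted p by DESeq2 and so could not be called. Aldh6a1 was the enzyme gene that passed this unadjusted level in all 3 tests.

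The log2 difference was above 0 for 37 of 55 genes (67.3%), against 54.1% of all genes, with 33 of 55 under quantile normalization, and the median was 0.10 against 0.03. Both KO-labelled values lay above both WT values in 13 of 55 (23.6%), against 20% of all genes, and both lay below in 4 of 55 (7.27%), against 15.1%. Without Sult5a1 and Cyp27a1, 35 of 53 differences (66.0%) were above 0 and 11 of 53 genes (20.8%) had both KO-labelled values above. In CPM, over all 55 genes, the counts were 14 above (25.5%, against 16.4%) and 6 below (10.9%, against 17.1%). The 14 include Sult5a1 and Cyp27a1, whose side was fixed by how they came to be tested. The groups lay apart in FPKM but not in CPM for Mgst1, Mgst2 and Aldh2, and in CPM but not in FPKM for Fmo1, Fmo5, Aldh1a7, Gstt1, Ugt1a6a and Aldh16a1. The median rested on WT replicate 2: it was -0.01 without that library, and 0.18 without WT replicate 1. Only 2 of the 55 genes (3.64%, against 12.6% of all genes) had their highest value in WT replicate 2, namely Aldh2 and Aldh18a1, while 9 had it in WT replicate 1 (16.4%, against 21.7%), 20 in KO replicate 1 (36.4%, against 30.4%) and 24 in KO replicate 2 (43.6%, against 35.2%). WT replicate 2 also had the lowest fibroblast marker sum given above. Within groups, the median absolute log2 difference of the 55 genes was 0.21 for the WT pair and 0.45 for the KO-labelled pair. Over all genes tested these were 0.18 and 0.41. Between the group means the median absolute difference was 0.18, against 0.22 for all genes tested. A difference of 2-library means varies less than a difference of single libraries, so these sizes are not directly comparable. The difference was smaller than 1 in size for 54 of 55 genes, against 97.5% of all genes, the exception being Sult5a1.

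**Figure D3:**
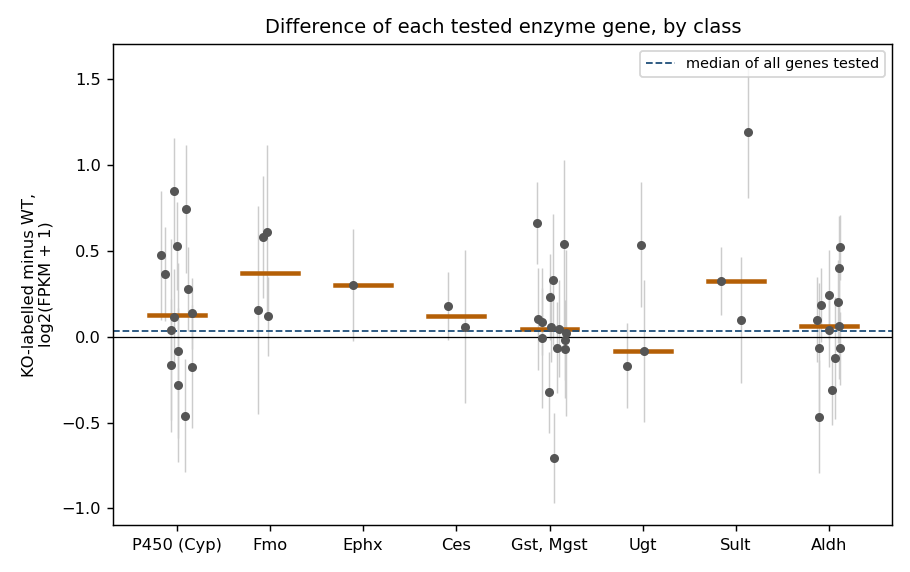
Difference between KO-labelled and WT libraries on the log2(FPKM + 1) scale for the 55 tested genes, by class; each point is a gene with its standard error from limma, orange bars are class medians and the dashed line is the median of all 11055 genes tested (0.03). P450, Gst, Ugt and Aldh genes fall on both sides of 0, while the 4 Fmo, 3 Sult, 2 Ces and 1 Ephx genes lie above it. The side of Sult5a1 was fixed by how it came to be tested.

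Among the P450s, 9 of 14 tested genes had a difference above 0 and 5 below, with a median of 0.13 that was -0.02 with no filter on low genes. Cyp2b10 (ENSMUSG00000030483, chromosome 7, 25897620 to 25926624), the mouse P450 known for its induction by phenobarbital in liver, read 101 and 110 FPKM in the WT pair and 188 and 124 FPKM in the KO-labelled pair. The groups did not overlap, and KO replicate 1 stood highest. KO-labelled minus WT came to 0.53 on the log2 scale (SE 0.255, limma adjusted p = 0.948), falling to 0.23 without KO replicate 1, and the fragments numbered between 865 and 3968 per library. Cyp2r1, which makes 25-hydroxyvitamin D, was at 3.26 and 4.04 FPKM in the WT pair, against 9.10 and 5.89 FPKM in the KO-labelled pair. Again the groups did not overlap, with KO replicate 1 highest (log2 difference 0.85, SE 0.307, limma adjusted p = 0.948). Cyp39a1, an oxysterol hydroxylase, read 16.2 and 15.6 FPKM in the WT pair and 16.6 and 25.9 FPKM in the KO-labelled pair. Both KO-labelled values lay above WT, KO replicate 1 only just. The difference was 0.36 (SE 0.272), and 0.06 without KO replicate 2. Cyp27a1, the mitochondrial sterol 27-hydroxylase, was at 0.232 and 0.294 FPKM in the WT pair, against 1.08 and 1.15 FPKM in the KO-labelled pair. It reached the condition for testing through the KO-labelled libraries only, so a difference was built into its being tested, and it rests on 2, 5, 23 and 16 fragments.

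The Cyp4 family, which hydroxylates fatty acids at their far end, gave a median of -0.08 over 5 tested genes, which ran from -0.66 without WT replicate 2 to 0.22 without WT replicate 1. Cyp4v3 read 49.4 and 43.7 FPKM in the WT pair and 46.9 and 55.9 FPKM in the KO-labelled pair, and the groups overlapped. Cyp4b1, a lung P450 known for turning plant furans into reactive products, was at 18.5 and 8.93 FPKM in the WT pair, against 11.2 and 11.5 FPKM in the KO-labelled pair. The WT pair spanned the KO-labelled pair, and the difference of -0.17 became 0.31 without WT replicate 1. Cyp4f17 read 5.78 and 3.39 FPKM in the WT pair and 3.01 and 2.92 FPKM in the KO-labelled pair; both of the latter were lower (-0.46, SE 0.328, limma adjusted p = 0.948), and the difference was -0.15 without WT replicate 1 and -0.77 without WT replicate 2.

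The flavin monooxygenases, which oxidise nitrogen and sulfur atoms, gave differences above 0 in 4 of 4 tested genes, with a median of 0.37 that fell to 0.06 without WT replicate 2 and to 0.08 without KO replicate 1. Fmo2, the main lung form, was at 36.9 and 27.4 FPKM in the WT pair, against 67.1 and 34.4 FPKM in the KO-labelled pair. KO replicate 1 was the highest, and KO replicate 2 lay between the WT libraries (log2 difference 0.58, SE 0.355, limma adjusted p = 0.948), and the difference was 0.11 without KO replicate 1. Fmo5 read 8.46 and 9.20 FPKM in the WT pair and 10.2 and 9.15 FPKM in the KO-labelled pair. Fmo4 was at 4.08 and 1.94 FPKM in the WT pair, against 6.67 and 1.42 FPKM in the KO-labelled pair, which bracketed WT. In FPKM, Fmo1 was low in WT replicate 2 alone, at 0.346 FPKM against 2.42 FPKM in WT replicate 1 and 2.38 and 2.18 FPKM in the KO-labelled pair. Its difference of 0.61 became -0.06 without WT replicate 2. Fmo1 rests on 10 and 4 fragments in the WT pair and 59 and 18 in the KO-labelled pair, and edgeR on fragments gave 1.72.

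Of the hydrolases, Ephx1, the microsomal epoxide hydrolase, read 43.1 and 28.2 FPKM in the WT pair and 54.9 and 33.9 FPKM in the KO-labelled pair. In each group replicate 1 was the higher, and the groups overlapped (0.30, SE 0.324). Ces1d (ENSMUSG00000056973, chromosome 8, 93166068 to 93197838) was at 401 and 393 FPKM in the WT pair, against 484 and 418 FPKM in the KO-labelled pair. Both KO-labelled libraries were higher, and the group means differed by less than the gap between those libraries (0.18, SE 0.200, limma adjusted p = 0.957). Ces1e read 5.02 and 4.07 FPKM in the WT pair and 7.76 and 2.78 FPKM in the KO-labelled pair, which bracketed the WT values.

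The glutathione transferases went both ways, 9 of 15 with a difference above 0 and 6 below, with a median of 0.05 that was -0.04 under quantile normalization. Mgst1 (ENSMUSG00000008540, chromosome 6, 138140316 to 138156755) was at 412 and 416 FPKM in the WT pair, against 421 and 461 FPKM in the KO-labelled pair, the narrowest range of the 4 genes above 100 FPKM, and its difference of 0.09 (SE 0.194) was -0.01 under quantile normalization. Gstt1, of the theta class, read 115 and 99.5 FPKM in the WT pair and 72.3 and 100 FPKM in the KO-labelled pair; KO replicate 1 was lowest and the groups overlapped (-0.32, SE 0.235), whereas in CPM both KO-labelled values, 84.8 and 98.6, lay below the WT values of 119 and 103. Gstp1, of the pi class, was at 81.0 and 59.1 FPKM in the WT pair, against 42.0 and 117 FPKM in the KO-labelled pair, which lay on either side of WT. Its near copy Gstp2 had a mean of 1.35 FPKM. Gsta4, which conjugates the lipid peroxidation product 4-hydroxynonenal, read 63.4 and 49.1 FPKM in the WT pair and 61.1 and 49.5 FPKM in the KO-labelled pair, and its difference of -0.02 was 0.03 when library totals were made equal and 0.05 with edgeR. Mgst2, which can also make leukotriene C4, was at 5.84 and 5.93 FPKM in the WT pair, against 10.5 and 9.39 FPKM in the KO-labelled pair. The groups did not overlap in FPKM (0.66, SE 0.238, limma adjusted p = 0.948), but edgeR on fragments gave 0.19, and the gene shares its locus in the table with another. Mgst3 was lower in both KO-labelled libraries, at 3.30 and 3.92 FPKM against 6.74 and 6.25 FPKM in WT (-0.70, SE 0.264, limma adjusted p = 0.948).

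Of the glucuronosyltransferases, 3 of the Ugt1a locus on chromosome 1 were tested, 1 with a difference above 0 and 2 below. Ugt1a6a, which conjugates phenols, read 37.9 and 36.9 FPKM in the WT pair and 40.2 and 27.3 FPKM in the KO-labelled pair, and KO replicate 2 was the lowest (-0.17, SE 0.248). In CPM both KO-labelled values, 85.8 and 67.2, lay below the WT values of 101 and 96.3, and edgeR gave -0.37. Ugt1a5 was at 2.52 and 1.88 FPKM in the WT pair, against 1.19 and 3.12 FPKM in the KO-labelled pair. Ugt1a1, the bilirubin-conjugating enzyme, read 0.948 and 1.26 FPKM in the WT pair and 2.65 and 1.53 FPKM in the KO-labelled pair, where both values were higher (0.53, SE 0.365, limma adjusted p = 0.948). The median of the 3 genes was -0.08 by limma and -0.05 by edgeR, and the 3 genes share most of their sequence, as given above.

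Of the sulfotransferases 3 were tested, and all had a difference above 0, which for Sult5a1 was fixed by how it came to be tested. Sult1a1, which sulfates phenols, was at 61.6 and 52.6 FPKM in the WT pair, against 68.1 and 74.9 FPKM in the KO-labelled pair, which did not overlap WT (0.32, SE 0.199, limma adjusted p = 0.948). Sult2b1, a sulfotransferase of cholesterol and other hydroxysteroids, read 7.54 and 9.23 FPKM in the WT pair and 12.9 and 6.22 FPKM in the KO-labelled pair, which bracketed WT. Sult5a1 was listed at 0 and 0.204 FPKM in the WT pair, against 1.30 and 1.73 FPKM in the KO-labelled pair. It had the smallest unadjusted limma p of the set (0.0216; adjusted p = 0.948), was tested through the KO-labelled libraries only, and rests on 0 and 1 fragments in WT and 10 fragments in each KO-labelled library.

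Among the aldehyde dehydrogenases, 8 of 13 tested genes had a difference above 0 and 5 below, with a median of 0.06 that was -0.03 with DESeq2. Aldh6a1 (ENSMUSG00000021238, chromosome 12, 84430717 to 84451004), which takes part in the breakdown of valine and pyrimidines, was at 44.4 and 44.5 FPKM in the WT pair, against 67.9 and 60.9 FPKM in the KO-labelled pair. The groups did not overlap, with WT at 44.5 ± 0.0665 FPKM and the KO-labelled pair at 64.4 ± 4.95 FPKM (SD, n = 2 each). On the log2 scale the difference was 0.52 (SE 0.191, limma adjusted p = 0.948) and 0.54 with edgeR, and the gene shares its locus in the table with another. Aldh2 read 213 and 222 FPKM in the WT pair and 195 and 158 FPKM in the KO-labelled pair, both lower in FPKM (-0.31, SE 0.204), while edgeR on fragments gave -0.07 and the groups overlapped in CPM. Aldh1a7, a cytosolic relative of Aldh1a1, was at 66.9 and 65.2 FPKM in the WT pair, against 65.8 and 85.9 FPKM in the KO-labelled pair, KO replicate 2 standing alone. Aldh3a2, the fatty aldehyde dehydrogenase, read 42.6 and 44.0 FPKM in the WT pair and 38.9 and 50.9 FPKM in the KO-labelled pair, on either side of WT. Aldh18a1, which starts proline synthesis from glutamate, was at 1.83 and 2.40 FPKM in the WT pair, against 1.21 and 1.29 FPKM in the KO-labelled pair; both were lower (-0.46, SE 0.329, limma adjusted p = 0.948), and edgeR on fragments gave -1.11.

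The total of the whole set was taken in CPM, which is not corrected for gene length, so longer transcripts weigh more in it. The 191 genes held 4099 and 3832 CPM in WT and 4855 and 4165 CPM in the KO-labelled libraries. KO replicate 1 was highest, and KO replicate 2 lay just above WT replicate 1. For WT replicate 1 the exact binomial interval was 4038 to 4161 CPM and for KO replicate 2 it was 4117 to 4212 CPM, so the intervals of these 2 libraries overlapped. P450s summed to 641 and 610 CPM in WT and to 844 and 735 CPM in the KO-labelled libraries. Carboxylesterases summed to 850 and 793 CPM in WT and to 1146 and 891 CPM in the KO-labelled libraries. Glutathione transferases were at 843 and 770 CPM in WT and at 797 and 845 CPM in the KO-labelled libraries, which overlapped. Glucuronosyltransferases were lower in both KO-labelled libraries, at 98.0 and 85.3 CPM against 111 and 107 CPM. With 2 libraries against 2, an exact permutation test cannot go below p = 0.333 (two-sided), and no other test was made on these sums. KO replicate 1, the library with the muscle genes and the lowest AT2 marker sum (mostly Sftpc), had the highest total in 6 of the 8 classes. Single genes weighed heavily in these totals. In that library Ces1d held 10701 of the 10900 carboxylesterase fragments, and Cyp2b10 held 3968 of the 8021 P450 fragments.

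**Figure D4:**
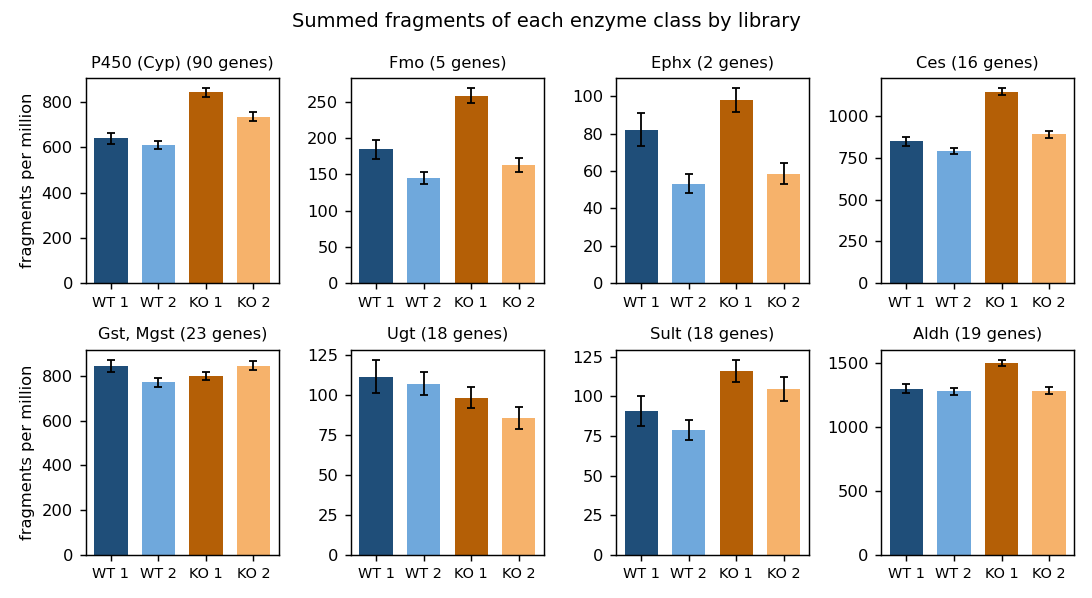
Summed CPM of each enzyme class in the 4 libraries (bars from 0; error bars are exact 95% binomial intervals, which cover counting error only). KO replicate 1 is the highest bar for P450s (844) and carboxylesterases (1146), while glutathione transferases run from 770 to 845 over all 4 libraries. Much of the P450 bar in KO replicate 1 is Cyp2b10, and most of its carboxylesterase bar is Ces1d.

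Enzymes and factors that work beside the set were read from a list of 74 genes, of which 73 were in the table and 53 were tested. Of these, 29 had a difference above 0 and 24 below, 0 passed the threshold with limma, edgeR or DESeq2 at adjusted p, and 1 had an unadjusted limma p under 0.05, against 4.84% of all genes. That gene, Cyb5r1, named here because it was the 1 gene in that count, read 11.3 and 15.2 FPKM in the WT pair and 30.4 and 22.9 FPKM in the KO-labelled pair, a log2 difference of 0.96 that was 0.31 by edgeR on fragments. Cyb5b, a form of cytochrome b5, was at 143 and 129 FPKM in the WT pair, against 97.7 and 107 FPKM in the KO-labelled pair, both lower. Cyb5r3, a reductase for cytochrome b5, read 98.3 and 87.9 FPKM in the WT pair and 185 and 81.9 FPKM in the KO-labelled pair, high in KO replicate 1 only, but the difference of 0.40 by limma turned to -0.19 by edgeR on fragments. Gclc, of the first step of glutathione synthesis, ran from 160 to 206 FPKM, and Nfe2l2, the regulator of the antioxidant response, from 92.3 to 116 FPKM. Nr3c1, the glucocorticoid receptor, lay between 23.9 and 31.8 FPKM. Ugp2, which makes UDP-glucose, was higher in both KO-labelled libraries, at 58.9 and 63.5 FPKM against 41.1 and 47.5 FPKM (log2 difference 0.46, SE 0.197, limma adjusted p = 0.948), while edgeR on fragments gave 0.28. Aox3, an aldehyde oxidase, was lower in both, at 203 and 195 FPKM against 222 and 219 FPKM (-0.15, SE 0.184). The export pumps Abcc3 (28.03 to 41.8 FPKM) and Abcc5 (18.5 to 26.6 FPKM) and the retinal reductases Dhrs3 (114 to 155 FPKM) and Rdh11 (12.4 to 18.2 FPKM) had log2 differences from -0.21 to 0.29, and the groups overlapped for Abcc3, Abcc5 and Dhrs3 but not for Rdh11. Cbr2, a lung carbonyl reductase, read 4198 and 3801 FPKM in the WT pair and 2973 and 3003 FPKM in the KO-labelled pair (-0.42, SE 0.247, limma adjusted p = 0.948), while edgeR on fragments gave -0.12. Of the nuclear receptors known to drive Cyp2b and Cyp3a genes in liver, Nr1i2 had 0 fragments in all libraries and Nr1i3 had 0 to 5 per library.

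Promoter windows from RefSeq (GRCm38.p6, 250 bases before to 50 after each start) were searched on both strands for GCGTG, the core of the element that binds the aryl hydrocarbon receptor, and for TGACNNNGC, the core of the antioxidant response element. The table held 52 windows for 45 of the 55 tested genes. GCGTG was found in 18 of these windows (34.6%), against 32.4% of all 32851 windows. TGACNNNGC was found in 4 of them (7.69%), against 12.4% of all windows. The 4 matches are shown on the strand of their gene, with the motif in capitals, as Mgst1 is the most abundant enzyme gene and Gsta3 a transferase.
Mgst1, chr6:138140461-138140489, plus strand: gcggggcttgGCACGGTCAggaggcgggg
Gsta3, chr1:21240454-21240482, plus strand: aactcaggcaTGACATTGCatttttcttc
Aldh9a1, chr1:167349894-167349922, plus strand: ttaattatgcTGACTAGGCccaagctact
Cyp2j6, chr4:96553618-96553646, minus strand: actctcagaaGCTTTGTCActtcctgcga
In Mgst1 and Cyp2j6 the motif stands as its reverse complement, and none of the 4 overlaps a GCGTG match. By GENCODE M21 coordinates the Mgst1 and Cyp2j6 matches lie inside the gene, past its start. Counted from the RefSeq start, their first motif base is at -56 in Mgst1 and at 16 in Cyp2j6. The window of Cyp2b10, the most abundant P450, holds 2 GCGTG matches; the 212 bases up to its start in GENCODE M21, which lies before the RefSeq start, carry 1 of them, again as the reverse complement, in capitals.
Cyp2b10, chr7:25897408-25897619, plus strand: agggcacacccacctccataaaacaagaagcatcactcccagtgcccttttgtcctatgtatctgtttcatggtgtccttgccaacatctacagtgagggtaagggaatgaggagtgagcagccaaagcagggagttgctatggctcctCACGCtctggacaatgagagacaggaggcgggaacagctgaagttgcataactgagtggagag
A match is a description of the letters, not of a bound site.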

How the data were processed

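Cells, libraries and groups are as described above. Per the submitters' processing notes, the tools were HISAT2 2.0.4, cutadapt 1.9.3, Cufflinks and Cuffdiff 2.2.1 with build mm10; the sources used here give neither parameters nor an annotation release. The deposited table holds the authors' FPKM values and estimated counts per gene. The counts are multiples of 1 constant per library; dividing by it made 90.9% to 92.6% of positive values whole within 0.05, and these fragments, rounded, gave CPM, edgeR 4.0.16 and DESeq2 1.42.0. The main test was limma 3.58.1 (trend) on log2(FPKM + 1), which understates changes of low genes, with Benjamini-Hochberg adjustment at 0.05 over the 11055 genes at 1 FPKM or more in at least 2 libraries. The procedure was tested on simulated data. Members and gene lists were chosen with earlier results of these data known. Named genes were the 4 highest per class, the 6 higher and 6 lower with the smallest unadjusted p, any called, and from the related genes the 2 highest per group; other genes named were chosen after their values were seen. Coordinates are from GENCODE M21 (GRCm38). Loci in the table can hold several genes, which 14 of the 55 tested members share. A comparison of proteins was not made, as no protein table was used here. Replicate numbers were not taken as pairs. One sequence is not reported here.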

Additional observations from a re-analysis of the deposited data

How the results depend on the processing

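No member was called under any of the 17 alternatives, and the number of genes called was 0 except for 7 with DESeq2, 5 with edgeR and no filter, and 0 to 134 when a library was left out (134 without KO replicate 2, 3 without WT replicate 2). With the replicate number as a block, 0 genes and 0 members were called and the median of the members stayed at 0.10; same-numbered libraries deviated together with a correlation of only 0.0257 over 11055 genes. The members' median was 0.02 with no filter and ran from -0.01 to 0.18 when a library was left out. With no filter, class medians were -0.02 for P450s, 0.1 for Sult, -0.06 for Aldh, -0.05 for Cyp1 to Cyp3 and 0.03 for the Cyp families beyond Cyp4. For Ugt the median was 0.1 with a filter on the mean, 0.33 with edgeR, 0.35 with DESeq2 and 0.41 with edgeR and no filter, where further genes enter (over the 3 genes tested by limma edgeR gave -0.05); for Ephx it was 0.78 with edgeR and no filter. For Aldh it was 0.03 with median-of-ratios scaling, 0.02 with quantile normalization, 0.11 with equal totals, and -0.03 with both DESeq2 and edgeR without a filter. For Cyp1 to Cyp3 it was 0.53 with a filter at 5 FPKM, 0.25 with edgeR, -0.13 with DESeq2 and 0.0 with edgeR and no filter. Filters and count tests change which genes enter a median; beyond that, the cause was not tested. Leaving out a library gave class medians of 0.03 to 0.3 for P450s, -0.19 to 0.27 for Ugt, 0.23 to 0.57 for Sult, -0.05 to 0.18 for Aldh, 0.25 to 0.49 for Cyp1 to Cyp3 and -0.66 to 0.22 for Cyp4.

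Of 392 values of the 31 named members under the other alternatives, 8 reversed and 0 passed the threshold: Mgst1 at -0.01 and Aldh3a2 at -0.05 with quantile normalization, Gstp1 at -0.02 with median-of-ratios scaling and -0.07 with quantile normalization, and Gsta4 at 0.03 with equal totals and 0.05 with edgeR, DESeq2 and edgeR without a filter. Of 124 values with a library left out, 18 reversed; the ranges were -0.66 to 0.31 for Cyp4b1, -0.67 to 0.99 for Fmo4, -0.06 to 1.28 for Fmo1, -0.04 to 0.64 for Ephx1, -0.55 to 0.67 for Ces1e, -0.71 to 0.75 for Gstp1, -0.2 to 0.16 for Gsta4, -0.44 to 0.1 for Ugt1a6a, -0.54 to 0.37 for Ugt1a5, -0.37 to 0.57 for Sult2b1, 0.0 to 0.37 for Aldh1a7 and -0.15 to 0.23 for Aldh3a2. These fits assume that a lone library varies as much as the pair it is set against. Depth limits Sult5a1 and Cyp27a1, which rest on few fragments.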
